A study of Prunus persica with 4 samples.

Results

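In the small RNA library of peach, 2 abundant sequences were each listed for a pair of candidate precursors. The first was listed for miRC16 and miRC17, whose precursors overlapped on scaffold 1, and the second for miRC126 on scaffold 5 and miRC144 on scaffold 6. These 4 candidates were chosen, from 186 in the deposited table, because the pairs share their most abundant sequence at high counts, so their counts and the sharing itself are given as a description without a test. In both pairs the shared sequence was on the 5′ arm of one precursor and on the 3′ arm of the other. The label of a common 5p sequence therefore fitted miRC126 and not miRC144, where the table lists it as 3p.

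Small RNA was isolated from mixed flower buds, young stems and young leaves of garden-grown trees of the cultivar Lovell for which the labels give no treatment, and there was no replicate. No value therefore has a replicate error or belongs to one tissue. The 3 degradome libraries, from leaf, stem and flower, were not analysed here. Values are raw read counts for a whole precursor and for the sequences listed on its 5′ arm (5p) and 3′ arm (3p). Over all 186 precursors there were 15705 reads, with a median of 13 per precursor. Which sequence variants an arm count includes is not stated.

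A plant miRNA is cut by a Dicer-like enzyme from a transcript that folds back on itself. The cut leaves a duplex of the miRNA and a partner strand from the other arm, which usually accumulates less. Dicer cuts leave a short overhang at each 3′ end of that duplex, and plant miRNAs then find target transcripts by pairing over most of their length. Some plant miRNAs with a length of 22 nt, of which the miR482 superfamily is the best known, pair with transcripts of NB-LRR disease resistance genes. NB-LRR proteins carry an NB-ARC domain and leucine-rich repeats and recognise pathogens. No family is assigned to the 4 candidates in the sources used here.

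The listed sequences are shown first, since the pairs are defined by them, with the seed (bases 2 to 8) in capitals and T for U as deposited.
miRC16 3p and miRC17 5p: gGAATGGGaggattgggaaaa
miRC16 5p: tTGCCAACcccgcccattccaa
miRC17 3p: cTTCCCAAacctcccattccta
miRC126 5p and miRC144 3p: aCGTTATTatcgtgcggatgcta
miRC126 3p: aCGTTTGCacgataataacatct
The first shared sequence has 21 nt and starts with G, and the second has 23 nt and starts with A. No seed was common to any of these 5 sequences. Against the sequences of the study's list of conserved peach miRNAs, none of the 5 came closer than 9 mismatches over 20 or 21 nt. The paper's text does not name miR482 among its conserved families, so this comparison may not cover that superfamily. By the paper's methods, candidates were sought among sequences without a match to known miRNAs. How far that filter set the distance to the conserved list was not tested.

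The precursors of the first pair show how the same 21 bases lie at opposite ends of overlapping hairpins; capitals mark the listed arm sequences.
miRC16 precursor: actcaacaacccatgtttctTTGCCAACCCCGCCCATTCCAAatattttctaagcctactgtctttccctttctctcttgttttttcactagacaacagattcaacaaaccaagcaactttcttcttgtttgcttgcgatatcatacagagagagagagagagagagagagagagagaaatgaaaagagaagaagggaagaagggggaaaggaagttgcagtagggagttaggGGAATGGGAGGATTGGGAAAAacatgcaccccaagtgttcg
miRC17 precursor: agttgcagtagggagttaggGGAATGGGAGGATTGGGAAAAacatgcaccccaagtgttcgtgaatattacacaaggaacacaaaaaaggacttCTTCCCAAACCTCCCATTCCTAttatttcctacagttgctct
Both were on the plus strand of scaffold 1, where the table gives miRC16 the positions 29648307 to 29648580, a length of 274 nt, and miRC17 the positions 29648520 to 29648655, a length of 136 nt. The version of the peach genome behind these positions is not given in the sources used here, and no gene annotation was joined to them. The precursors overlapped by 61 nt, from 29648520 to 29648580, which is 22.3% of miRC16 and 44.9% of miRC17, and together they covered 349 nt. Precursors overlapped in 4 pairs of the whole table, and miRC16 with miRC17 was the 1 pair of these on the same strand. The shared sequence lay from 29648540 to 29648560, inside the overlap, so both rows describe one position in the genome and the same reads.

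Reads on the first pair were almost evenly matched. The precursor of miRC16 had 531 reads, of which 475 were on its 3p sequence, 37 on its 5p sequence and 19 outside both. The precursor of miRC17 had 520 reads, of which 475 were on its 5p sequence, 38 on its 3p sequence and 7 outside both. The shared sequence thus had the same count in both rows and held 89.5% of the reads of miRC16 (95% Wilson interval 86.6 to 91.8%) and 91.4% of those of miRC17 (interval 88.6 to 93.5%). The less abundant arm held 7.23% of the arm reads in miRC16 (interval 5.29 to 9.80%) and 7.41% in miRC17 (interval 5.44 to 10%), and these intervals overlapped almost fully. A difference between the partner strands was not detectable at this depth. Reads outside the listed sequences made up 3.58% in miRC16 (interval 2.30 to 5.52%) and 1.35% in miRC17 (interval 0.654 to 2.75%), and these intervals overlapped as well. The intervals cover counting error only, since reads of amplified libraries are not independent molecules, and no test was made between rows that share their reads.

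Added up, the rows of the first pair hold 1051 reads. With the 3 distinct sequences counted once, 550 reads remained. Reads anywhere on the joined region numbered at least 569 and at most 576, depending on whether the 7 reads of miRC17 outside its listed sequences fell in the overlap, which the table does not show.

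**Figure D1:**
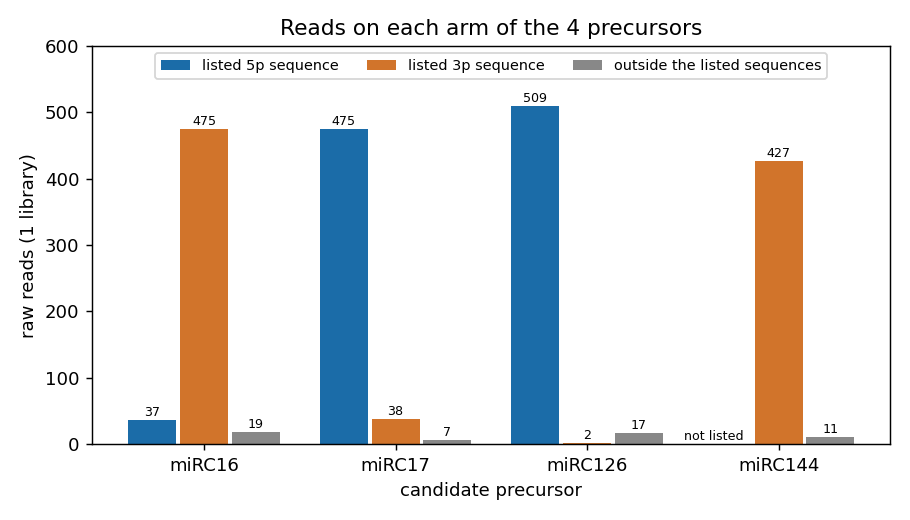
Raw reads of 1 library (vertical axis) on the listed 5p sequence (blue), the listed 3p sequence (orange) and the rest of the precursor (grey) for each of the 4 precursors. The tall bar is on opposite arms within each pair, at 475 and 475 reads in miRC16 and miRC17 and at 509 and 427 in miRC126 and miRC144.

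The shared sequence of the first pair was paired with different strands in the 2 deposited structures. In miRC16 it paired with bases 17 to 40 of the precursor, upstream, with 18 of its 21 bases paired and 6 bases of the opposite stretch unpaired. In miRC17 it paired with bases 96 to 114, downstream, again with 18 of 21 bases paired, and with 1 base of the opposite stretch unpaired. The stretches opposite the shared sequence are printed with the paired bases in capitals, to show the interruptions.
opposite in miRC16: TTctTTgCCAAccCCgCCCATTCC
opposite in miRC17: TTCCCAAaCCTCCCATTCC
The reverse complement of the shared sequence differed from miRC17 at 2 positions at its best ungapped match and from miRC16 at 5. From the candidates miRC14, miRC40 and miRC141 it differed at 3 positions each, fewer than from miRC16. In both members of the pair the stretch opposite the shared sequence fell mostly within the listed less abundant arm. This held for 20 of its 24 bases in miRC16 and for all 19 in miRC17. The duplex of the listed arms had overhangs of 2 nt at both 3′ ends in miRC16. In miRC17 it had 2 nt at the end of the 3p sequence and 1 nt at the end of the 5p sequence. Overhangs of 2 nt at both ends were found in 41 of the 46 candidates with both arms listed, so miRC16 had the usual form and miRC17 was 1 of the 5 others.

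The hairpins also differed in size. The arms of miRC16 were 191 nt apart and those of miRC17 53 nt, against a median of 41 nt over the 46 candidates with both arms listed. Only miRC112 with 280 nt and miRC118 with 223 nt had a wider span than miRC16. Within this span miRC16 held an unbroken run of 31 alternating A and G bases, from base 148 to 178, the longest of any candidate; the next had 28. The deposited folding free energy, given here as its size, was 79.7 kcal/mol in miRC16 and 55.5 kcal/mol in miRC17. Per 100 nt of precursor the order reversed, to 29.1 kcal/mol in miRC16 and 40.8 kcal/mol in miRC17, where the median of all candidates was 36.8 kcal/mol. Paired bases made up 56.9% of miRC16 and 64.7% of miRC17, against a median of 69.3%. The shorter hairpin thus had the larger energy per 100 nt and the larger share of paired bases.

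**Figure D2:**
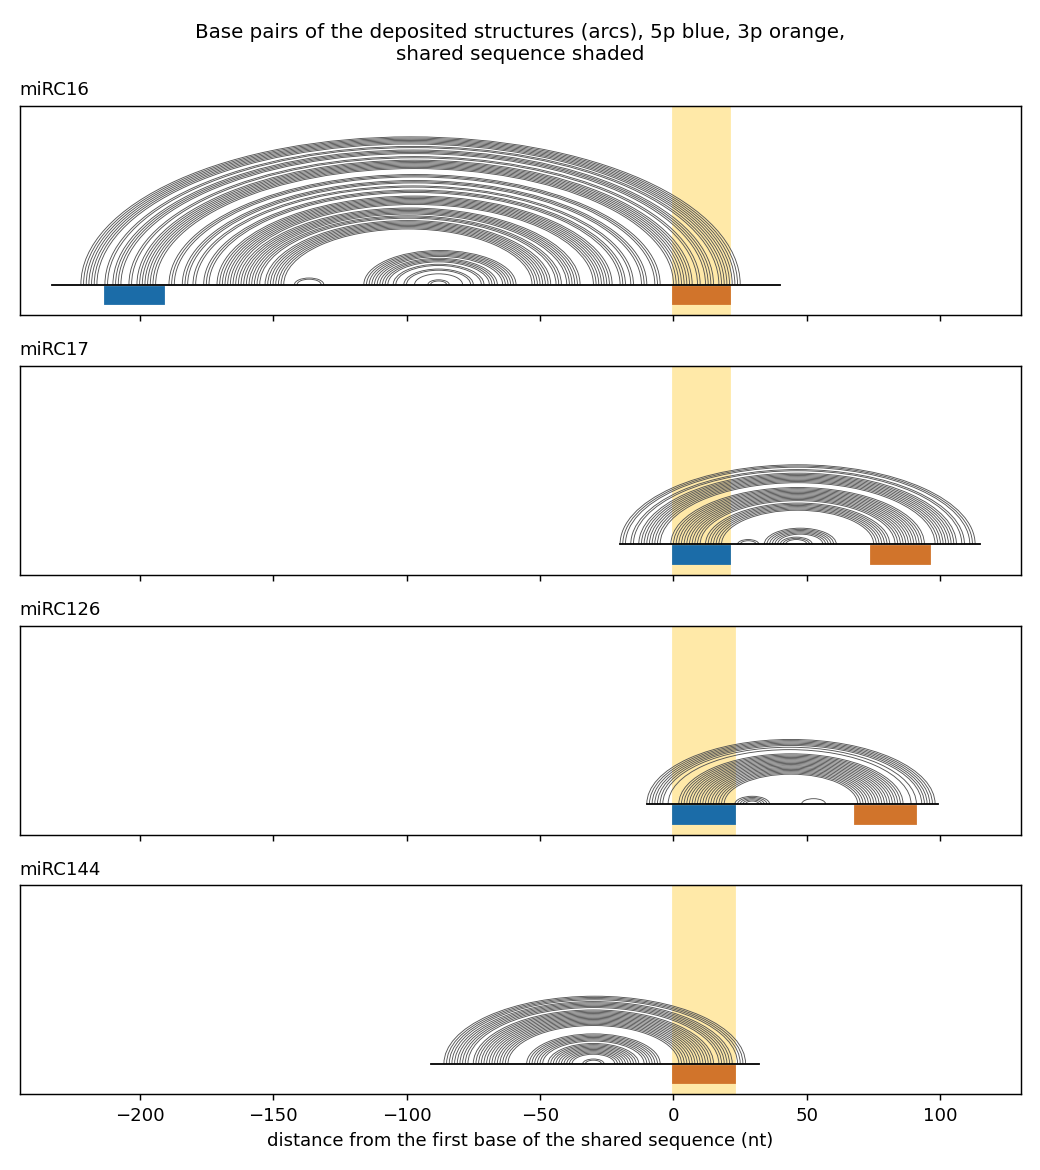
Base pairs of the deposited structures, drawn as arcs over each precursor (black line), with the first base of the shared sequence at 0 on the horizontal axis (nt), the listed 5p sequence in blue, the 3p sequence in orange and the shared sequence shaded. Arcs run to the left of the shared sequence in miRC16 and miRC144 and to the right in miRC17 and miRC126, and the arms of miRC16 are 191 nt apart.

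The first pair had neighbours of similar sequence. miRC13, miRC14 and miRC15 lay upstream on the same strand, and with miRC16 and miRC17 these 5 candidates spanned 4021 nt, from 29644635 to 29648655. miRC13 had 40 reads, miRC14 had 165 and miRC15 had 36, all fewer than either member of the pair. One arm of 22 nt from each of the last 4 candidates of the cluster, picked for their resemblance after the sequences were seen, is shown with the bases common to all 4 in capitals. The opposite arms of miRC14 and miRC15, also of 22 nt, are not part of this set.
miRC14 3p: tTtCCgAaaCCtCCCATtCCaA
miRC15 3p: tTgCCtAttCCtCCCATgCCaA
miRC16 5p: tTgCCaAccCCgCCCATtCCaA
miRC17 3p: cTtCCcAaaCCtCCCATtCCtA
Of 22 positions, 14 were the same in all 4, including an unbroken run of 5 from position 13. miRC17 3p differed from miRC14 3p at 3 positions, and miRC16 5p differed from miRC14 3p and from miRC15 3p at 5 each. miRC16 5p and miRC17 3p, the strands opposite the shared sequence, differed from each other at 7. The arm was 3p in miRC14, miRC15 and miRC17 and 5p in miRC16, so that miRC16 was the exception within this set. The counts of these sequences were 73 for miRC14, 34 for miRC15, 37 for miRC16 and 38 for miRC17. The sequence of the other arm had 92 reads in miRC14, 1 read in miRC15 and 475 reads in the shared sequence. The resembling arms thus had fewer reads than the shared sequence, and most reads of the pair were on the strand opposite them. This did not hold in miRC15, where the resembling arm had 34 reads against 1. In miRC14 the counts were closer, at 73 against 92.

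**Figure D3:**
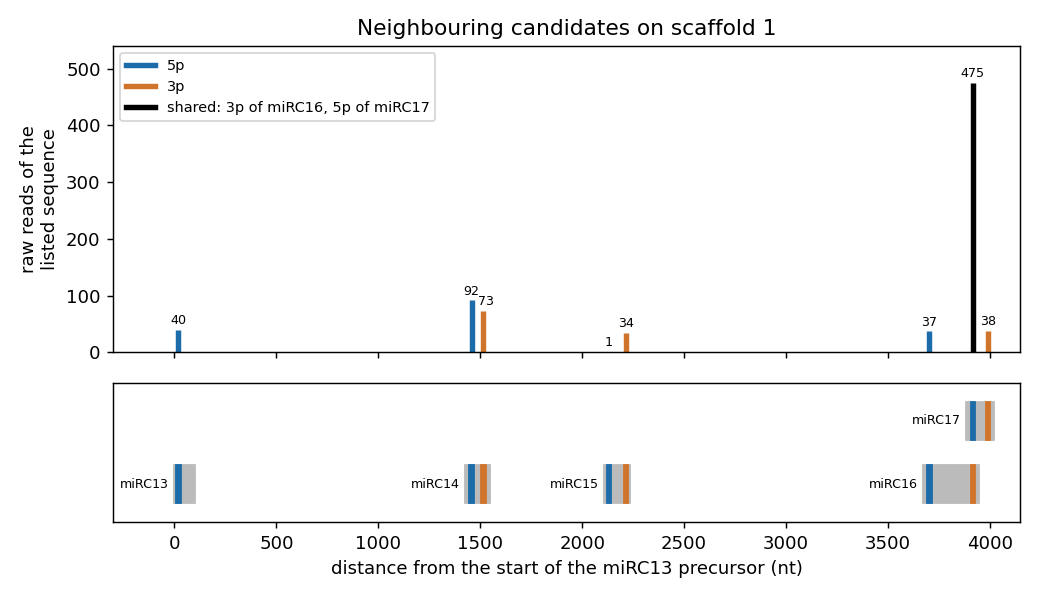
Reads of each listed sequence (upper panel, raw reads) and extent of each precursor (lower panel, grey, with 5p in blue and 3p in orange) against the distance from the start of miRC13 (nt). The shared sequence, black, has 475 reads, and the other listed sequences have 1 to 92.

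No other precursor held the shared sequence within 3 mismatches, and miRC13 and miRC15 of the cluster, and miRC70 on scaffold 3, held it with 6. A stretch like miRC17 3p lay in miRC141 with 5 mismatches and in miRC40 with 6. Neither stretch overlapped a listed arm, since miRC141, with 236 reads, and miRC40, with 31, had a 5p sequence listed elsewhere in the precursor.

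The precursors of the second pair lie on different scaffolds and are shown with the listed arms in capitals.
miRC126 precursor: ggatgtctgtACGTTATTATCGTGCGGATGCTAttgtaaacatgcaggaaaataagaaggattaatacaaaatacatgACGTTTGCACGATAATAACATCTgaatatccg
miRC144 precursor: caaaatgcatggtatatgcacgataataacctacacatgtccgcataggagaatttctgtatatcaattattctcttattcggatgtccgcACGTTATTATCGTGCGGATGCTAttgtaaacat
The 110 nt of miRC126 ran from 8812701 to 8812810 on scaffold 5 and the 124 nt of miRC144 from 7789238 to 7789361 on scaffold 6, each on the plus strand. The shared sequence ran from 8812711 to 8812733 in miRC126 and from 7789329 to 7789351 in miRC144.

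Unlike in the first pair, the count of the shared sequence was unequal. The precursor of miRC126 had 528 reads, of which 509 were on the shared 5p sequence, 2 on the 3p sequence and 17 outside both. The precursor of miRC144 had 438 reads, of which 427 were on the shared 3p sequence and 11 outside it, and no 5p sequence was listed. The shared sequence thus had 82 reads fewer in miRC144, which is 16.1% of the higher count, although both rows come from 1 library. Among the 17 most abundant sequences listed for several candidates, 4 had unequal counts. The other 3, with at most 32 reads, differed by at most 2 reads, which is 3.12 to 20% of their higher count. All other shared sequences with more reads, from 49 to 532, had equal counts at every candidate. The relative difference of miRC126 and miRC144 lay within the range of those 3, but there it rests on at most 2 reads. The table does not say which reads were counted at one precursor and not at the other. Since the same library gave both counts, they are not independent and were not tested against each other.

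Within each row the reads were concentrated on the shared sequence. It held 96.4% of the reads of miRC126 (interval 94.5 to 97.7%) and 97.5% of those of miRC144 (interval 95.6 to 98.6%), and both shares lay above those of the first pair. The intervals were separate, but they cover counting error only, and the rows of a pair share reads. The members were also chosen by these counts, so this is a description and not a test between the pairs. The 3p sequence of miRC126 held 0.391% of its arm reads (interval 0.107 to 1.42%). This was below the 7.23% of miRC16 and the 7.41% of miRC17, again with separate intervals. The median over the 46 candidates with both arms listed was 7.87%, but it is not a like comparison. Some of the 46 had few reads, such as 6 on the precursor of miRC12, where 1 read on the lesser arm is already a large share. Reads outside the listed sequences made up 3.22% in miRC126 (interval 2.02 to 5.10%) and 2.51% in miRC144 (interval 1.41 to 4.44%). If any reads of miRC144 lay on its 5′ arm, they were among those 11. Both arms were listed in 3 of the 4 members and in 24.7% of all candidates, which says little about the members because they were chosen at high counts. Added up, the rows of the second pair hold 966 reads, and with each of the distinct sequences counted once they hold 511 at the higher count and 429 at the lower.

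The identity of the loci reached past the shared sequence itself. The stretch common to both precursors is printed with the bases that differ in capitals.
miRC126: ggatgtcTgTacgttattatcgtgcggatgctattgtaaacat
miRC144: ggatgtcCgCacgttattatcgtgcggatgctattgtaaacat
Over 43 nt the stretches differed at 2 positions, T8C and T10C, counted from the first base printed, with the base of miRC126 first. The base just before the shared sequence was 1 of these, and the identical part comprised the 23 nt of the shared sequence and the 10 nt after it. A read within those 33 nt matches both precursors, and a read that starts further upstream matches one of them. The stretch began at the first base of miRC126 and ended at the last base of miRC144, so the deposited precursors do not show how far it extends.

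The shared sequence again had opposite partners. In miRC126 it paired with bases 80 to 97, downstream, with 18 of its 23 bases paired, and in miRC144 with bases 10 to 30, upstream, with 20 of 23 paired. The opposite stretches follow, with paired bases in capitals.
opposite in miRC126: CGTTTGCACGATAATAAC
opposite in miRC144: TGGTATaTGCACGATAATAAC
These stretches had an identical run of 14 nt, TGCACGATAATAAC, at their 3′ ends. The run lay downstream of the shared sequence in miRC126 and upstream of it in miRC144. All its bases were paired with the shared sequence in both structures. Strands that pair with the same sequence can resemble each other for that reason alone. Upstream of the opposite stretches the printed precursors also read alike, with caaaataca in miRC126 and caaaatgca in miRC144. These bases were not paired with the shared sequence in either structure. How far this likeness of the 2 loci goes was not tested. In the first pair the longest run common to the opposite stretches was 8 nt. The listed arms of miRC126 formed a duplex with overhangs of 2 nt at both 3′ ends, and they were 45 nt apart.

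In the second pair miRC144 had the larger energy per 100 nt and the larger share of paired bases, although its precursor was longer. The size of its folding free energy was 47.6 kcal/mol, or 38.4 kcal/mol per 100 nt, against 31.3 kcal/mol and 28.5 kcal/mol per 100 nt in miRC126. Among the 186 candidates this placed miRC144 at rank 82 and miRC126 at rank 132, with miRC17 at rank 66 and miRC16 at rank 125. Paired bases made up 69.4% of miRC144 and 58.2% of miRC126. In both pairs the member with the lower total count, miRC17 with 520 reads and miRC144 with 438, had the larger energy per 100 nt. The totals of miRC16 and miRC17 differed by only 11 reads, with the shared count equal in both. No relation between count and energy can be read from 2 pairs. The GC content was 43.4% in both miRC16 and miRC17, 35.5% in miRC126 and 37.1% in miRC144, with a median of 37.9% over all candidates.

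**Figure D4:**
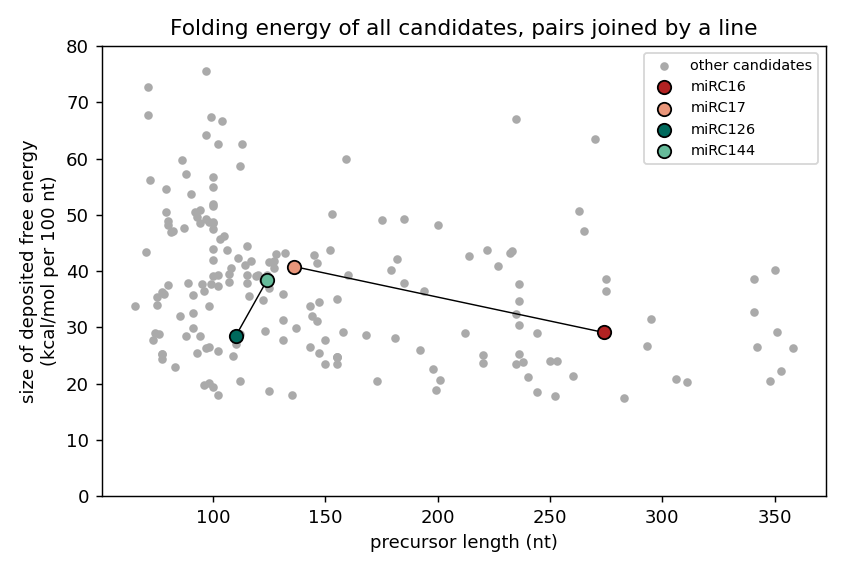
Size of the deposited folding free energy per 100 nt (kcal/mol, vertical axis) against precursor length (nt) for all 186 candidates, with the 4 members coloured and each pair joined by a line. miRC17 and miRC144 lie near 40 kcal/mol per 100 nt, at 40.8 and 38.4, and miRC16 and miRC126 lower, at 29.1 and 28.5.

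The second pair also had relatives in the table, at much lower counts. A precursor of 109 nt on the minus strand of scaffold 5, miRC136, held the shared sequence with 3 mismatches at the same place, bases 11 to 33. Its listed 5p sequence there had 12 reads and is shown with the differing bases in capitals.
miRC136 5p: acgAtattatcgtgcggatATta
On the minus strand of scaffold 6, miRC156 held it with 5 mismatches, but its listed 3p sequence, with 23 reads, lay towards the other end of the precursor. Local alignment gave 85 identical bases in 108 columns between miRC126 and miRC136 (78.7%) and 86 in 109 between miRC126 and miRC156 (78.9%). These alignments covered nearly the whole of miRC126, whereas that of miRC126 with miRC144 covered 43 columns with 41 identical. The alignment with miRC144 was limited by the ends of the deposited precursors, at the first base of miRC126 and the last base of miRC144. Its identity was 95.4%. The lengths of these alignments therefore do not show which of the 3 loci miRC126 resembles most.

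Of 17 most abundant sequences listed for several candidates, 3 appeared on both arms, namely the 2 of these pairs and one listed for miRC23 and 6 others at 8 to 10 reads. The arm assignments of the other 14 were the same at every candidate. These were read from the same rows as the choice of the pairs, so the count describes the table only.

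The study's target tables separate the members of the first pair by strand. For miRC16 the shared sequence was used, and the listed target encodes a glycosyl hydrolase superfamily protein, an enzyme class that cuts sugar bonds. For miRC17 the sequence used was not the shared one but the 3p sequence, and its targets encode NB-ARC and LRR disease resistance proteins. The neighbour miRC15, whose 3p sequence belongs to the resembling set, was likewise linked to a disease resistance gene of the TIR-NBS-LRR class. The sequence used for that link, and any targets of miRC13 and miRC14, are not given here. No target was found in those tables for miRC126 or miRC144. Cleavage at these targets was not analysed here. The primer of miRC16 for quantitative PCR equals the first 20 bases of the shared sequence, which lies in both precursors, so it does not distinguish miRC16 from miRC17.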

How the data were processed

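The authors sequenced 1 small RNA library, kept reads of the accepted lengths, removed those that matched other non-coding RNAs or known miRNAs, and ran MIREAP with default parameters to find hairpins. They deposited raw read counts, without normalization, and folding free energies checked with Mfold, in kcal/mol. A dash in place of an arm sequence was read as not listed. The conserved list, primer and target tables of the paper were used for sequences and annotations only. The members and the lists compared with them were chosen with earlier results of these data known.

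From the deposited counts, shares were given with 95% Wilson intervals (scipy 1.17.1, python 3.11.15). Pairing was read from the deposited structures, with RNAfold of ViennaRNA 2.7.2 as an alternative. Overhangs were counted from the base paired with each 5′ end, carried on from the nearest paired base where that end was unpaired. Similar stretches were found without gaps at up to 6 mismatches on the same strand, also for the reverse complement, and neighbours within 5000 bases. Precursors were aligned locally with biopython 1.88 (match 1, mismatch -1, gap opening -2, extension -1). Candidates named besides the members met these limits or share a sequence among themselves; miRC112, miRC118 and miRC23 were named after their values were seen. The code was tested on simulated sequences with planted stems and mismatches. Alternatives were the denominator of a share, the counting of shared sequences, the folding program and the mismatches allowed. With 1 library no test between groups was possible.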

Additional observations from a re-analysis of the deposited data

How the results depend on the processing

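With RNAfold in place of the deposited values, the size of the folding free energy was 75.5 kcal/mol for miRC16, 54.1 for miRC17, 30.57 for miRC126 and 46.9 for miRC144, and per 100 nt it was 27.6, 39.8, 27.8 and 37.8 kcal/mol in that order, so the order within each pair was kept. With each distinct sequence counted once, the reads of miRC16 and miRC17 fell from 1051 to 550, at the highest and at the lowest count, and those of miRC126 and miRC144 from 966 to 511 at the highest and 429 at the lowest, because shared reads were no longer added again. At up to 6 mismatches, 5 candidates held the shared sequence of the first pair and 4 that of the second, against 2 each for exact matches. At up to 3 mismatches the numbers were 2 and 3. The shares of reads stayed within their intervals with the other denominator, the bases paired in each listed arm changed by at most 1 with RNAfold, and the sequences on both arms numbered 3 when any listed arm was counted. No paired analysis was possible because the counts came from a single library. At 2 reads on the less abundant arm of miRC126, its share is known only to within its interval.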
